A study of Mus musculus with 12 samples.

Results

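Principal cells line the collecting duct and take up water and sodium from the final urine. A set of 10 of their transport genes was followed here by name in 12 mouse kidneys, and all 10 symbols were found among the 54532 genes of the count table. They comprise the water channels Aqp2, Aqp3 and Aqp4, the vasopressin receptor Avpr2, the epithelial sodium channel (ENaC) subunits Scnn1a, Scnn1b and Scnn1g, the small sodium pump partner Fxyd4, the cortisol- and corticosterone-inactivating enzyme Hsd11b2 and the mineralocorticoid receptor Nr3c2.

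Whole-kidney RNA was sequenced from 18-day-old C57BL/6 mice (C57BL/6 J in the study's methods) in 4 groups of 3. Every mouse carried the Pkd1 RC allele, a missense allele that lowers functional Polycystin-1. Noncystic mice were Pkd1 RC/+, which the study also wrote as Pkd1 RC/F, that is, with a floxed and still intact second allele. Cystic mice were Ksp-Cre; Pkd1 RC/F (Pkd1 RC/-), in which a Cre recombinase under the kidney-specific cadherin promoter deletes the floxed allele in tubule epithelium. Within each, Pkd2 was either wildtype (WT) or homozygous for D17, a germline CRISPR/Cas9 deletion of the miR-17 motif in the Pkd2 3′-UTR. The groups are written below as noncystic Pkd2 WT (mice 19 to 21), noncystic Pkd2 D17 (22 to 24), cystic Pkd2 WT (25 to 27) and cystic Pkd2 D17 (28 to 30). The comparisons address which of the water and sodium genes differ in the cystic kidney, and whether they differ when Pkd2 lacks its miR-17 motif.

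Libraries held 18800307 to 24453033 counted reads. Levels are given as CPM, the reads of a gene per 1000000 reads of the scaled library. Pkd2 itself stood at 194 to 219 CPM in noncystic Pkd2 WT, 271 to 286 in noncystic Pkd2 D17, 213 to 233 in cystic Pkd2 WT and 307 to 337 in cystic Pkd2 D17, so every D17 kidney lay above every WT kidney. Markers of proximal tubule, thick ascending limb, podocyte and endothelium were present in all 12 kidneys. Summed over 5 adrenal genes, mouse 30 reached 344 CPM and mouse 27 reached 47.1 CPM, against 3.74 to 7.15 CPM in the other 10. High Xist, an RNA of female cells, was found in mice 19, 22, 23, 25, 26 and 28, so the groups held unequal numbers of each sex. P-values measure the spread between these mice, and the labels do not say which were littermates.

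In the principal cell, vasopressin binds the receptor encoded by Avpr2, raises cAMP, and thereby moves Aqp2 to the apical membrane and raises Aqp2 transcription. Water leaves across the basolateral side through Aqp3 and Aqp4. Aldosterone binds Nr3c2, and Hsd11b2 protects that receptor by inactivating glucocorticoids, while sodium enters through ENaC, built of the alpha, beta and gamma subunits encoded by Scnn1a, Scnn1b and Scnn1g. In polycystic kidney disease the vasopressin and cAMP axis drives fluid secretion and growth of collecting duct cysts, and a blocker of the receptor is used as a treatment.

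The D17 allele lacks the miR-17 site of Pkd2, shown here because it is the designed difference between the Pkd2 groups. The mature mouse miR-17-5p (RefSeq) carries its seed, bases 2 to 8, in capitals. The Pkd2 site (GENCODE M21, chromosome 5, first matching base at position 133 after the stop codon) carries the matching 7 letters in capitals. The 3′-UTR of Pkd2 held 1 such match.
mmu-miR-17-5p: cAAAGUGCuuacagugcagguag
Pkd2 site: tataattttctGCACTTTaatttatttta

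The letters GCACTTT occurred in the longest annotated 3′-UTR of 11.8% of 21037 genes and in none of the 10 principal cell genes, whose 3′-UTRs ran from 170 bases (Fxyd4) to 3955 bases (Aqp4). No match says only that these 7 letters are absent from those stretches.

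Promoter windows, from 250 bases before to 50 after the start, were given by RefSeq (GRCm38.p6) for 7 of the 10 genes and searched on both strands for 4 motifs linked to cAMP, steroid hormones and GATA factors. The full cAMP response element TGACGTCA occurred in 1.79% of 32851 promoters and in none of the 7. The short element TGACG occurred in 20.8% of all promoters, the steroid receptor motif AGAACA in 19% and the GATA motif AGATAA in 11.2%, and the full element contains the short one. Aqp2 held 1 match to each of the last 3, and Avpr2 held 2 to AGAACA. The windows below are shown because Aqp2 and Avpr2 were the only genes with a match, and capitals mark the matched letters. The short element, the GATA motif and both Avpr2 matches lie on the opposite strand, so their letters appear there as the reverse complement.
Aqp2 (chr15:99578838-99578867, + strand, short element and GATA): acagagaCGTCAatccTTATCTggagtcca
Aqp2 (chr15:99578865-99578894, + strand, steroid motif): ccattaatgaggAGAACAttagtcagctgt
Avpr2 (chrX:73892036-73892065, + strand, 2 steroid motifs): gtgtgttTGTTCTgacTGTTCTttatattc

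These matches began 211, 202 and 179 bases before the Aqp2 start, and 59 and 50 bases before the Avpr2 start. Aqp3, Scnn1b, Scnn1g, Fxyd4 and Nr3c2 had no match to any of the 4 motifs, and windows for the remaining 3 genes were not analysed here. A match is a description of letters and not of a bound site.

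The genes sit on 7 chromosomes of GRCm38. Aqp2 (ENSMUSG00000023013) occupies chr15:99579055-99584547, Hsd11b2 (ENSMUSG00000031891) chr8:105518755-105523988 and Scnn1a (ENSMUSG00000030340) chr6:125320659-125344943. Scnn1g (ENSMUSG00000000216, chr7:121734479-121768475) and Scnn1b (ENSMUSG00000030873, chr7:121865038-121918514) are neighbours on the same strand. Avpr2 (ENSMUSG00000031390, chrX:73892102-73895502) is a special case, since 81.3% of its 2886 exon bases lie under exons of Arhgap4 on the opposite strand. If reads were counted without strand, which the sources used here do not state, reads there could not be assigned to either gene. Avpr2 had 0 to 12 reads per kidney, and its level is uncertain.

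To compare genes, CPM were divided by the merged exon length in kilobases (RPKM). In noncystic Pkd2 WT kidneys Aqp2 led at 412 ± 56.5 RPKM (SD, n = 3, as for every ± on a level), followed by Hsd11b2 at 150 ± 30.7 and Aqp3 at 102 ± 6.08. Scnn1b (47.4 ± 3.62 RPKM), Fxyd4 (42.2 ± 8.10) and Scnn1a (41.7 ± 4.31) did not differ beyond their spread, and Scnn1g stood lower at 25.5 ± 4.21. Aqp4 (8.44 ± 1.80 RPKM) and Nr3c2 (3.50 ± 0.535) were the lowest genes with a usable level. In cystic Pkd2 WT kidneys Hsd11b2 rose to 504 ± 73.3 RPKM, within the spread of Aqp2 at 542 ± 392.

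**Figure D1:**
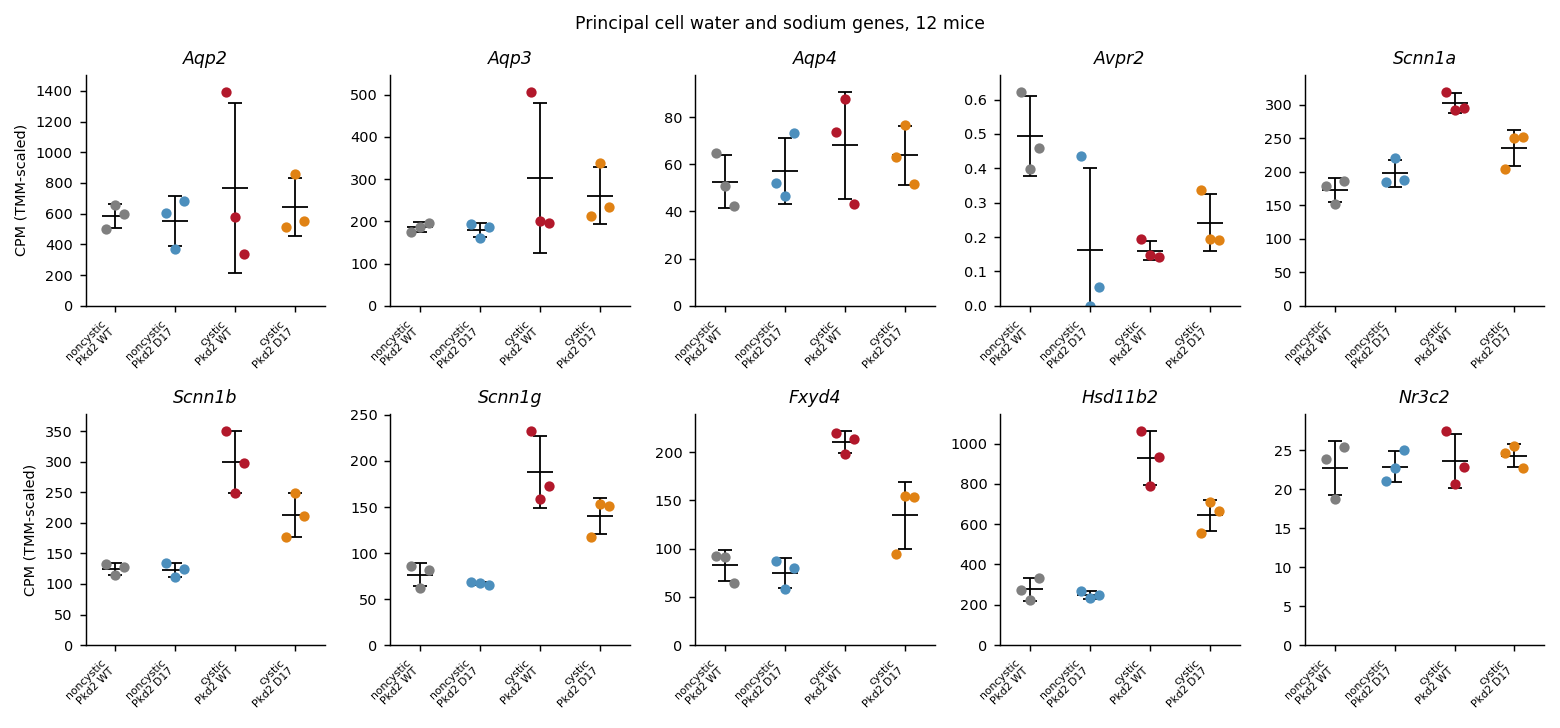
TMM-scaled CPM (vertical axis, from 0) of the 10 genes in the 12 kidneys, by group. Points are single mice, the horizontal mark is the group mean and the bars are 1 SD (the lower bar of Avpr2 is cut at 0); the 3 ENaC subunits, Fxyd4 and Hsd11b2 stand highest in cystic Pkd2 WT, while 1 cystic Pkd2 WT mouse at 1395 CPM sets the Aqp2 mean.

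Hsd11b2, Fxyd4 and the ENaC subunits rose in the cystic kidney, while the water channels, Avpr2 and Nr3c2 did not pass the test. Between cystic and noncystic Pkd2 WT kidneys, 5 of the 10 genes were called higher and 0 lower (edgeR quasi-likelihood test, adjusted p under 0.05 over all 24642 genes tested), against 16.9% of all tested genes called higher. The 5 were Hsd11b2, Fxyd4, Scnn1g, Scnn1b and Scnn1a, with rises from 1.75-fold to 3.36-fold. In 7 of the 10 the groups did not overlap, 6 higher and 1 (Avpr2) lower, where 41.7% of all tested genes did not overlap. Without a low-count cutoff edgeR also called Aqp2, Aqp3 and Aqp4, 8 in all (23.6% of all genes in either direction). In that run the Aqp2 log2 difference stayed at 0.40, while its adjusted p went from 0.461 to 0.000468. That of Hsd11b2 reached 6.41e-64 with 3 mice per group. The median log2 fold change was 0.75 over the 10 genes and 0.02 over all genes. In whole kidney, more cells of a type and more RNA per cell cannot be told apart.

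Hsd11b2 had the largest log2 fold change of the 5 genes called. It stood at 274, 221 and 334 CPM in the 3 noncystic Pkd2 WT mice and at 1061, 791 and 932 CPM in the 3 cystic Pkd2 WT mice. Every cystic kidney was thus above every noncystic one, with a log2 fold change of 1.75 ± 0.14 (SE, as for every ± on a change) and an adjusted p of 1.50e-07.

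Each ENaC subunit rose. Scnn1a, the pore subunit that can form a channel on its own, went from 179, 152 and 186 CPM to 319, 292 and 295 CPM, a log2 fold change of 0.81 ± 0.10 (adjusted p = 1.26e-05). Scnn1b went from 133, 114 and 128 CPM to 351, 249 and 298 CPM, a change of 1.26 ± 0.13 (adjusted p = 1.62e-06). Scnn1g went from 85.5, 62.0 and 81.6 CPM to 233, 158 and 173 CPM, a change of 1.30 ± 0.14 (adjusted p = 2.64e-06). The groups were separate for all 3 subunits, and mouse 25 was the highest cystic Pkd2 WT kidney for each.

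The rise of the alpha subunit was smaller than that of the gamma subunit within the same kidneys. There were 2.09 to 2.45 Scnn1a reads per Scnn1g read in noncystic Pkd2 WT mice, 2.70 to 3.26 in noncystic Pkd2 D17 mice, 1.37 to 1.84 in cystic Pkd2 WT mice and 1.64 to 1.74 in cystic Pkd2 D17 mice. The ratio was thus lower in all 6 cystic than in all 6 noncystic kidneys. The Scnn1b to Scnn1g ratio ran from 1.40 to 1.96 over the 12 mice. It overlapped between cystic and noncystic Pkd2 WT but not between cystic Pkd2 D17 (1.40 to 1.62) and noncystic Pkd2 D17 (1.64 to 1.96). These ratios are descriptions with no test.

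Fxyd4, also called channel-inducing factor, a pump regulator typical of the collecting duct, rose as well. Its 91.9, 91.7 and 64.3 CPM in noncystic Pkd2 WT stood against 220, 198 and 213 CPM in cystic Pkd2 WT. The log2 fold change was 1.35 ± 0.18 (adjusted p = 2.02e-05), again with no overlap.

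Nr3c2, the receptor that Hsd11b2 guards, did not move with it. It measured 23.8, 18.8 and 25.4 CPM in noncystic and 27.4, 20.7 and 22.8 CPM in cystic Pkd2 WT kidneys, a log2 difference of 0.06 (95% interval -0.21 to 0.33, adjusted p = 0.769). Within a kidney there were 0.0760 to 0.101 Nr3c2 reads per Hsd11b2 read in the 6 noncystic mice, 0.0245 to 0.0262 in cystic Pkd2 WT and 0.0341 to 0.0442 in cystic Pkd2 D17. The 3 ranges were separate.

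**Figure D2:**
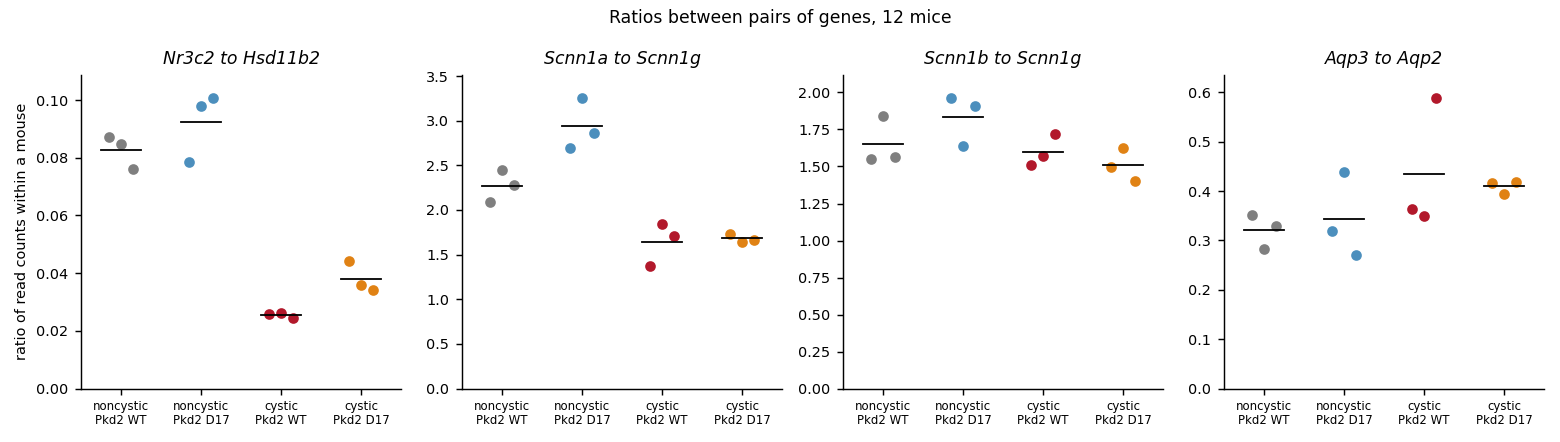
Ratio of read counts of 2 genes within each of the 12 kidneys (vertical axes, from 0), by group, with the group mean as a line. Nr3c2 to Hsd11b2 and Scnn1a to Scnn1g were lower in every cystic than in every noncystic kidney, while Scnn1b to Scnn1g and Aqp3 to Aqp2 overlapped between cystic and noncystic.

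Aqp2, the vasopressin-regulated apical water channel, showed no call and the widest spread. Its level was 499, 657 and 597 CPM in noncystic Pkd2 WT and 1395, 576 and 335 CPM in cystic Pkd2 WT, so the cystic group held both the highest and the lowest of these 6 kidneys. The log2 difference was 0.40 ± 0.36 (95% interval -0.37 to 1.16, adjusted p = 0.461). Without mouse 25 it was -0.36 (adjusted p = 0.327).

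Aqp3, the basolateral water and glycerol channel, followed Aqp2 in the same mouse. It stood at 175, 186 and 197.07 CPM in noncystic and 507, 202 and 197.10 CPM in cystic Pkd2 WT kidneys, which by this margin did not overlap. The log2 difference of 0.70 ± 0.27 missed the threshold (adjusted p = 0.0585). With libraries scaled by their totals it was 0.86 (adjusted p = 0.0188), and without mouse 25 it was 0.10 (adjusted p = 0.672). Without mouse 26 or 27 it passed (adjusted p = 0.0131 and 0.0143).

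Aqp4, the second basolateral water channel, measured 64.6, 50.8 and 42.4 CPM against 73.6, 87.5 and 43.0 CPM. These ranges overlapped, and the log2 difference was 0.37 ± 0.22 (adjusted p = 0.243). Without mouse 27, the lowest of the cystic Pkd2 WT kidneys for Aqp4, it was 0.61 (adjusted p = 0.0281). Without mouse 26 it was 0.15 (adjusted p = 0.689), and without mouse 21 it was 0.22 (adjusted p = 0.570). Per Aqp2 read there were 0.0711 to 0.130 Aqp4 reads in noncystic and 0.0527 to 0.152 in cystic Pkd2 WT kidneys, again overlapping.

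Avpr2, the vasopressin receptor gene, had 12, 7 and 9 reads in noncystic Pkd2 WT and 5, 3 and 3 reads in cystic Pkd2 WT, 28 against 11 in all. The log2 difference was -1.57 ± 0.75 (adjusted p = 0.130). Noncystic Pkd2 D17 had 8, 0 and 1 reads and cystic Pkd2 D17 had 7, 4 and 4. The kidney at 0 allows up to 0.164 CPM, from 3 reads and for counting error only. At these counts, and with most of the gene overlapped by Arhgap4, no difference in receptor mRNA was detectable.

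**Figure D3:**
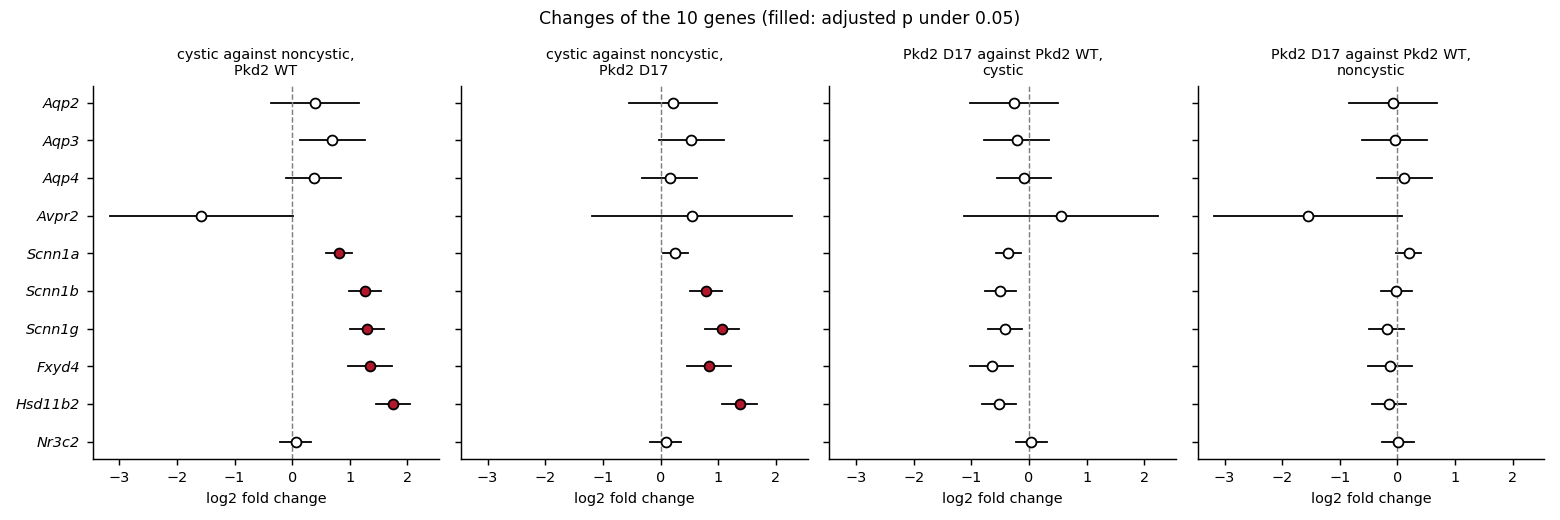
Log2 fold change (horizontal axis) of the 10 genes in 4 comparisons, with 95% intervals from the edgeR fit. Filled points passed an adjusted p of 0.05, namely 5 genes between cystic and noncystic Pkd2 WT, 4 between cystic and noncystic Pkd2 D17, and 0 in either comparison of Pkd2 D17 with Pkd2 WT.

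The cystic difference was also measured between the Pkd2 D17 groups, which share no mice with the Pkd2 WT groups. Here 4 of the 10 genes were called higher and 0 lower, against 12.8% of all tested genes called higher, and 5 genes did not overlap, where 37.9% of all genes did not. Hsd11b2 stood at 268, 231 and 248 CPM in noncystic and 557, 709 and 665 CPM in cystic Pkd2 D17 kidneys, a log2 fold change of 1.37 ± 0.14 (adjusted p = 4.02e-06). Scnn1g rose from 68.3, 67.8 and 65.4 CPM to 118, 153 and 151 CPM (1.06 ± 0.14, adjusted p = 3.98e-05). Scnn1b rose from 134, 111 and 125 CPM to 176, 249 and 212 CPM (0.78 ± 0.13, adjusted p = 0.000288).

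Fxyd4 rose from 87.6, 57.8 and 80.0 CPM to 94.5, 155 and 154 CPM (0.84 ± 0.18, adjusted p = 0.00236), and mouse 28 stood apart from its 2 group mates. Scnn1a was not called in Pkd2 D17 kidneys. Its 184, 221 and 187 CPM in noncystic and 204, 251 and 252 CPM in cystic Pkd2 D17 overlapped, with a log2 difference of 0.26 ± 0.10 (adjusted p = 0.0889). That difference was 0.41 (adjusted p = 0.00909) with library totals and 0.35 (adjusted p = 0.0251) without mouse 28. Without mouse 22 or 30 it was 0.20 and 0.21 (adjusted p = 0.269 and 0.265).

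The water channels and Nr3c2 again missed the threshold. Aqp2 measured 604, 369 and 686 CPM in noncystic and 511, 857 and 555 CPM in cystic Pkd2 D17 (0.21, adjusted p = 0.744). Aqp3 measured 193, 161 and 186 CPM and then 213, 338 and 233 CPM, without overlap (0.53 ± 0.27, adjusted p = 0.179). Without mouse 25, which widens the spread shared by all groups, its adjusted p was 0.00518. Without mouse 29 the Aqp3 difference was 0.31 (adjusted p = 0.531). Aqp4 differed by 0.16 (adjusted p = 0.691) and Nr3c2 by 0.09 (adjusted p = 0.708).

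Between the cystic groups, Pkd2 D17 kidneys had lower values of Hsd11b2, Fxyd4 and the ENaC subunits than Pkd2 WT kidneys, short of the threshold. None of the 10 genes was called in either direction by edgeR, against 2.23% of all tested genes. An unadjusted p under 0.05 was reached by 5 of the 10 (14.3% of all genes), and the same 5 did not overlap between the groups (19% of all genes). DESeq2's Wald test called 4 (3.75% of all genes with an adjusted p), and edgeR without a low-count cutoff called the same 5 (4.94% of all genes). The median log2 difference was -0.31 over the 10 genes and 0.00 over all genes.

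The 5 were again Hsd11b2, Fxyd4 and the ENaC subunits. Hsd11b2, at 1061, 791 and 932 CPM in cystic Pkd2 WT and 557, 709 and 665 CPM in cystic Pkd2 D17, differed by -0.53 ± 0.14 on the log2 scale (adjusted p = 0.0588, and 0.00890 by DESeq2). Scnn1b differed by -0.50 ± 0.13 (adjusted p = 0.0564) and Fxyd4 by -0.65 ± 0.18 (adjusted p = 0.0703). The Scnn1b groups were kept apart only by 249.03 CPM (mouse 26, Pkd2 WT) against 248.55 CPM (mouse 29, Pkd2 D17). Scnn1a differed by -0.36 ± 0.10 (adjusted p = 0.0859) and Scnn1g by -0.42 ± 0.14 (adjusted p = 0.141). Hsd11b2 passed without mouse 20, 21 or 26 (adjusted p = 0.0390, 0.0389 and 0.0326), and Scnn1b without mouse 26 (adjusted p = 0.0202). Without mouse 28 the edgeR adjusted p rose to 0.279 for Hsd11b2, 0.276 for Scnn1b and 0.291 for Fxyd4. It was then 0.365 for Scnn1a and 0.476 for Scnn1g. Without mouse 27 it was 0.167 for Hsd11b2 and 0.155 for Scnn1b.

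Relative to the noncystic Pkd2 WT mean, the cystic Pkd2 WT and cystic Pkd2 D17 means were 336% and 233% for Hsd11b2, 255% and 163% for Fxyd4, and 246% and 184% for Scnn1g. They were 240% and 170% for Scnn1b and 175% and 137% for Scnn1a. The remaining genes overlapped between the cystic groups. Aqp2 differed by -0.26 (95% interval -1.02 to 0.50), Aqp3 by -0.21 (-0.77 to 0.35), Aqp4 by -0.09 (-0.56 to 0.38) and Nr3c2 by 0.04 (-0.23 to 0.31). Without mouse 25 the Aqp2 difference was 0.49 (adjusted p = 0.364) and that of Aqp3 was 0.39 (adjusted p = 0.182), each with the opposite sign.

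**Figure D4:**
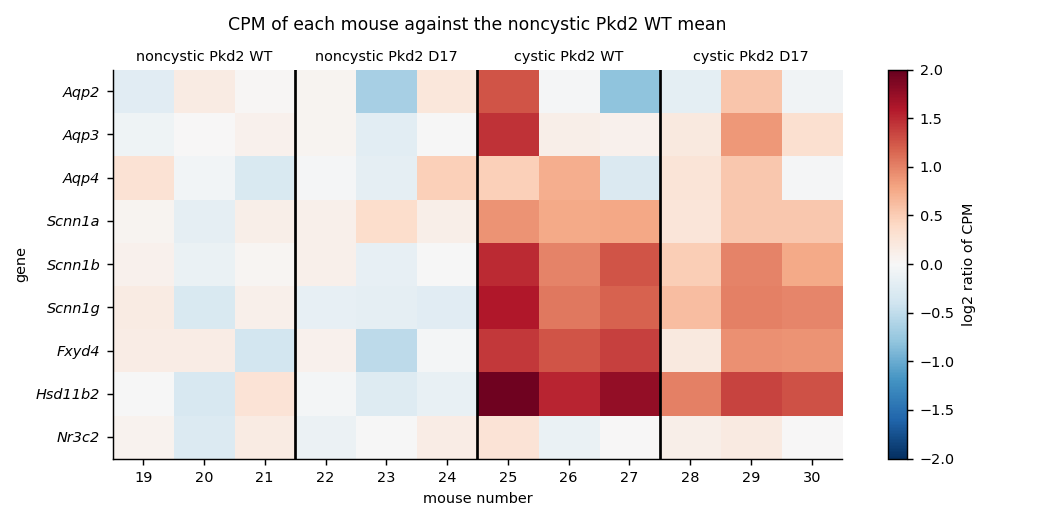
Log2 ratio of CPM in each of the 12 kidneys to the noncystic Pkd2 WT mean (colour, from -2 to 2), for the 9 genes other than Avpr2. Hsd11b2, Fxyd4 and the ENaC subunits are raised in all 3 cystic Pkd2 WT mice and less so in cystic Pkd2 D17, whereas Aqp2 and Aqp3 are raised mainly in mice 25 and 29.

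In noncystic kidneys the Pkd2 genotype made no detectable difference to the level of any of these genes. None of the 10 was called by edgeR, none had an unadjusted p under 0.05 and none had separate groups, where 0.00406% of all genes were called and 10.8% did not overlap. DESeq2's Wald test also called none of the 10. Apart from Avpr2 (-1.56, adjusted p = 0.771), the log2 differences ran from -0.19 (Scnn1g) to 0.20 (Scnn1a, 95% interval -0.02 to 0.41). The Scnn1a to Scnn1g ratio was 2.09 to 2.45 in noncystic Pkd2 WT and 2.70 to 3.26 in noncystic Pkd2 D17. These ranges did not overlap, while those of the other ratios did, and no ratio was tested.

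Whether the cystic difference itself depended on the Pkd2 genotype was tested by the interaction. None of the 10 passed by edgeR, where 0.0122% of all genes passed, and 2 had an unadjusted p under 0.05, where 8.33% of all genes did, and DESeq2's Wald test called none. Without a low-count cutoff edgeR called 3, Scnn1a, Scnn1b and Fxyd4 (1.71% of all genes). The 2 with an unadjusted p under 0.05 were Scnn1a (-0.56 ± 0.15, adjusted p = 0.263) and Scnn1b (-0.48 ± 0.18, adjusted p = 0.495). For Hsd11b2 the interaction was -0.38 (95% interval -0.79 to 0.04) and for Scnn1g -0.24 (-0.66 to 0.18).

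Over the 12 mice the sodium-handling genes other than Nr3c2 varied closely together, and Aqp2 less so with them. Pearson's r of log2CPM was 0.99 between Scnn1g and Hsd11b2, 0.98 between Scnn1b and Scnn1g and 0.95 between Scnn1b and Fxyd4. Aqp2 gave 0.82 with Aqp3, 0.57 with Aqp4, 0.26 with Hsd11b2 and 0.17 with Scnn1a. Aqp3 gave 0.74 with Scnn1b, 0.73 with Scnn1g and 0.68 with Hsd11b2, but 0.44 with Aqp4. These values mix differences between and within groups and are given without a test.

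Among the 13690 genes whose mean log2CPM was 1 or more, the 5 most like Aqp2 over the 12 mice were Aqp3 (r = 0.82), Wwox (0.79), Klhl21 (0.75), Clcn5 (0.74) and Zkscan4 (0.72). The gene most like Hsd11b2 was Col26a1 (0.99), and those most like Scnn1a, Scnn1b and Scnn1g were Hip1r (0.97), Rnf186 (0.99) and 4930550C14Rik (0.99). Fxyd4 was followed most closely by Tmem171 (0.97), Aqp3 by Traf3ip2 (0.90), Nr3c2 by Polm (0.88) and Aqp4 by Slc25a47 (0.83).

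The pathways around the 10 genes were described from 8 lists. Of all 24642 tested genes, edgeR called 16.9% higher between cystic and noncystic Pkd2 WT kidneys in the main run. Between the cystic groups it called 2.23% in either direction. Counts in the lists and cell markers below are to be read beside these shares. The share of all genes called lower is not given here, so counts of lower genes are descriptions only. Of 29 genes of the aldosterone response and ENaC regulation, 8 were higher and 13 lower between cystic and noncystic Pkd2 WT kidneys (median -0.26). Steroid-induced genes were among the lower ones. Tsc22d3, encoding the glucocorticoid-induced leucine zipper protein, fell (-1.08 ± 0.12, adjusted p = 2.79e-06), as did the Sgk1 substrate and aldosterone-responsive gene Ndrg2 (-1.40 ± 0.08, adjusted p = 1.25e-08) and the clock gene Per1 (-0.68 ± 0.15, adjusted p = 0.00176). Wnk1, a kinase of distal salt transport, fell by 1.01 on the log2 scale (adjusted p = 1.45e-05), and Klhl3, which targets such kinases for degradation, fell by 1.29 (adjusted p = 2.20e-06).

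The other genes called lower in that list, named here for completeness and not by their rank, were Sgk1, Fkbp5, Zbtb16, Klf9, Usp2, Wnk4, Nr3c1 and the ENaC-cleaving protease Prss8. Those called higher included Nedd4l, the ligase that removes ENaC from the membrane, with Cnksr3, St14, Spint1, Ywhae, Stk39 and Mllt3. ENaC mRNA thus rose in kidneys where Tsc22d3, Ndrg2 and Per1 fell, and 8 genes of the same list rose with it. Whether the steroid response differed was not tested. Between the cystic groups only Ndrg2 was called (0.56 ± 0.08, adjusted p = 0.00295), higher in Pkd2 D17.

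Of 13 genes of the sodium pump and potassium exit list, 2 were higher and 6 lower in cystic Pkd2 WT (median -0.18), and with library totals 2 were higher and 4 lower. The pump subunit Atp1b1 (-0.61 ± 0.10, adjusted p = 0.000123) fell, as did the pump modulator Fxyd2 (-1.35 ± 0.10, adjusted p = 9.30e-08), and both are also abundant in other tubule segments. The potassium channel genes Kcnj1, Kcnj10 and Kcnj16 were also called lower. Kcnq1 (0.79 ± 0.12, adjusted p = 8.24e-05) and Fxyd5 (0.81 ± 0.19, adjusted p = 0.00260) rose, and Fxyd5 was lower in cystic Pkd2 D17 than in cystic Pkd2 WT (-0.89 ± 0.19, adjusted p = 0.0194).

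Among 29 tested genes of vasopressin and cAMP signalling, 4 were higher and 8 lower (median -0.04), which became 6 higher and 3 lower with library totals. Ptger3, a prostaglandin E2 receptor that opposes cAMP, fell (-1.14 ± 0.10, adjusted p = 3.82e-07) and was higher in cystic Pkd2 D17 than in cystic Pkd2 WT (0.65 ± 0.10, adjusted p = 0.00393). Ptger4, a prostaglandin E2 receptor that raises cAMP, rose (0.65 ± 0.12, adjusted p = 0.000437), as did the inhibitory G protein gene Gnai2 (0.52 ± 0.10, adjusted p = 0.000430). Prkar2b, a regulatory subunit of protein kinase A, fell by 1.82 (adjusted p = 0.00142).

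Of 23 genes of Aqp2 trafficking and turnover, 5 were higher and 5 lower, or 10 and 2 with library totals. Mal, which retains Aqp2 at the apical surface, rose (0.64 ± 0.09, adjusted p = 2.67e-05), as did Sipa1l1 (0.50 ± 0.09, adjusted p = 0.000355) and Arhgdia (0.41 ± 0.08, adjusted p = 0.000775). Rab11a, of recycling endosomes, fell (-0.45 ± 0.07, adjusted p = 0.000163). Cav1 was the only gene of the list called between the cystic groups (-0.42 ± 0.09, adjusted p = 0.0227).

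The other aquaporins are mostly made outside the principal cell. Of 7 tested, Aqp1 (-1.10 ± 0.13, adjusted p = 4.16e-06), Aqp7 (-1.35 ± 0.17, adjusted p = 1.17e-05) and Aqp11 (-1.16 ± 0.14, adjusted p = 7.24e-06) fell in cystic Pkd2 WT. Aqp5, the closest relative of Aqp2 known from glands, rose (2.31 ± 0.34, adjusted p = 5.59e-05), as did Aqp9. Aqp1 was higher in cystic Pkd2 D17 than in cystic Pkd2 WT (0.68 ± 0.13, adjusted p = 0.0111).

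Genes of urea transport and the osmotic response, which serve the concentrated inner medulla, had 0 higher and 6 lower of 12 in cystic Pkd2 WT, or 1 and 3 with library totals. The osmolyte transporters Slc5a3 (-1.36 ± 0.11, adjusted p = 1.53e-07) and Slc6a12 (-1.91 ± 0.36, adjusted p = 0.000510) fell, with the vasopressin-regulated urea transporter Slc14a2 (-1.31 ± 0.26, adjusted p = 0.000710). In cystic Pkd2 D17, Slc14a2 (1.43 ± 0.26, adjusted p = 0.00902) and Slc5a3 (0.56 ± 0.11, adjusted p = 0.0160) were higher than in cystic Pkd2 WT. With 1 mouse left out, the number called between the cystic groups ran from 0 to 3.

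In the lists of collecting duct identity, chosen with earlier results of these data known, more genes were called higher than lower. Of all tested genes, 16.9% were called higher. Of 18 transcription factors of the duct, 11 were higher and 4 lower (median 0.43), led by Gata3 (1.67 ± 0.15, adjusted p = 3.20e-07), Gata2 (1.18 ± 0.12, adjusted p = 1.15e-06) and Elf3 (1.37 ± 0.15, adjusted p = 2.86e-06). Emx1, which is also counted in the distal convoluted and connecting tubule list below, fell (-1.55 ± 0.17, adjusted p = 2.48e-06). Of 19 genes of collecting duct epithelium, 15 were higher and 2 lower (median 1.15), with the keratin Krt18 at 2.30 ± 0.18 (adjusted p = 1.24e-07), the tight junction gene Cldn7 at 1.21 ± 0.10 (adjusted p = 1.38e-07) and Mcoln3 at 2.82 ± 0.13 (adjusted p = 1.92e-09).

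Between the cystic groups, Gata3 (-0.61 ± 0.14, adjusted p = 0.0323) and Elf5 (-0.84 ± 0.19, adjusted p = 0.0322) were lower and Tfap2b higher (0.48 ± 0.10, adjusted p = 0.0211) in Pkd2 D17. Krt7 (-0.63 ± 0.12, adjusted p = 0.0160), Krt18 (-0.71 ± 0.17, adjusted p = 0.0426) and Cldn7 (-0.38 ± 0.10, adjusted p = 0.0482) were lower too. Leaving out 1 mouse moved the number of lower duct epithelium genes from 3 to between 0 and 8.

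**Figure D5:**
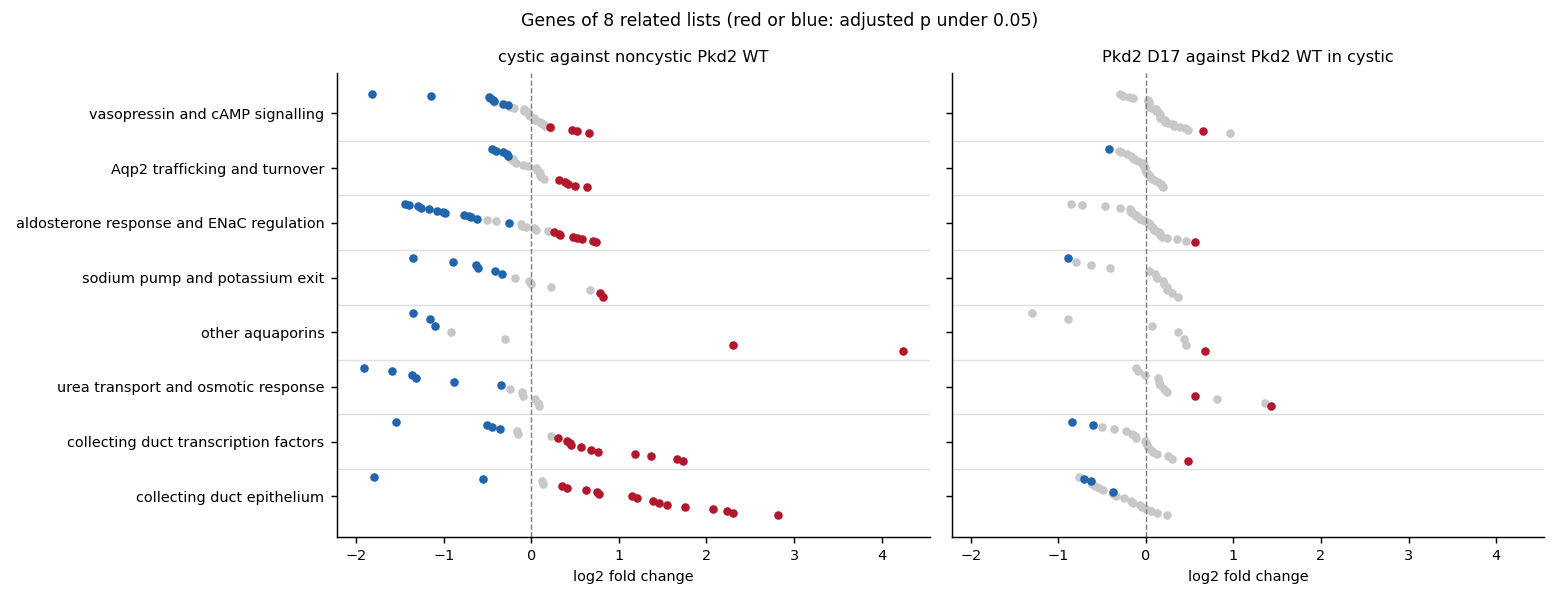
Log2 fold change (horizontal axis, the same scale in both panels) of the tested genes of 8 lists, 1 point per gene, between cystic and noncystic Pkd2 WT kidneys (left) and between cystic Pkd2 D17 and cystic Pkd2 WT kidneys (right). Red and blue points passed an adjusted p of 0.05 and grey points did not; on the left the collecting duct epithelium list lies mostly to the right (15 of 19 higher) and the urea and osmotic list has 6 of 12 genes lower.

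Markers of other cells moved between the same groups. Distal convoluted and connecting tubule genes, of segments that also express ENaC and Hsd11b2, summed to 3435 to 3756 CPM in noncystic and 616 to 1028 CPM in cystic Pkd2 WT, with 6 of 8 genes lower and 1 higher. Intercalated cell genes, from the other cell type of the duct, summed to 1464 to 1721 CPM and 1122 to 1763 CPM, with 4 of 13 higher and 6 lower. Proximal tubule genes fell in 9 of 9 (8110 to 10053 CPM, then 2880 to 4369 CPM) and thick ascending limb genes in 4 of 7 with 2 higher (4670 to 5379 CPM, then 1934 to 2603 CPM). Their part in the rise of ENaC, Fxyd4 and Hsd11b2 was not tested.

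Macrophage genes rose in 7 of 7 (143 to 150 CPM, then 338 to 487 CPM) and tubule injury genes in 6 of 7 (1524 to 1765 CPM, then 3712 to 4794 CPM). Fibroblast genes were higher in 3 and lower in 2 of 6 (1799 to 1938 CPM, then 2662 to 4074 CPM). Podocyte genes were higher in 1 and lower in 5 of 6, endothelial genes lower in 4 of 6, and urothelial genes higher in 1 of 8 (94.1 to 239 CPM, then 28.8 to 190 CPM). Without mouse 26 none of the urothelial genes was higher and 5 were lower, and without mouse 19, 21, 27 or 28 the 1 higher was not called. Of 4 astrocyte and brain genes, listed because Aqp4 is the main water channel of brain, 1 was higher and 1 lower (37.1 to 45.8 CPM, then 66.4 to 68.5 CPM).

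Between the cystic groups, 4 thick ascending limb genes and 3 proximal tubule genes were higher, and 4 macrophage and 4 tubule injury genes lower, in Pkd2 D17. With 1 mouse left out these counts ran from 4 to 5 (thick ascending limb), 0 to 3 (proximal tubule), 0 to 5 (macrophage) and 1 to 5 (tubule injury). The proximal tubule and macrophage counts were 0 without mouse 27, 28 or 29. Distal convoluted and connecting tubule genes summed to 870 to 1096 CPM and intercalated cell genes to 1195 to 1460 CPM in cystic Pkd2 D17, overlapping cystic Pkd2 WT. The part of these cells in the lower values of Hsd11b2, Fxyd4 and the ENaC subunits was not tested. Without mouse 30, the kidney with the most adrenal RNA, the Hsd11b2 difference between the cystic groups was -0.55 and that of Scnn1b -0.49. Without mouse 27, 28 or 29 the number of all genes called between the cystic groups went from 549 to 130, 127 and 118, and without mouse 25 it rose to 856.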

How the data were processed

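The authors deposited 1 table of raw read counts per gene for the 12 kidneys. Per the submitters' processing notes and the study's methods, reads were trimmed with Trim Galore 0.6.3 and counted during alignment with STAR 2.5.3a on GRCm38 (Ensembl release 94). The strand setting is not given in the sources used here. Of 35 protein-coding genes lying wholly under exons of the opposite strand, 34 had 0 reads, so reads appear to have been counted without strand. Genes without a name held 0.0225% of reads.

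The cutoff on low counts was a mean log2CPM of -3 (prior count 2), which left 24642 genes, and the 10 members all passed. Counts were fitted with edgeR 4.0.16 (quasi-likelihood, TMM factors, 4 group means, 8 residual degrees of freedom) in R 4.3.3, with Benjamini-Hochberg adjustment over all genes and a threshold of 0.05, and checked on simulated counts. CPM and RPKM were computed from these counts with the TMM-scaled library sizes. GENCODE M21 gave exon lengths and positions and matched 99.77% of gene IDs.

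Of each list, the genes named with values were up to 4 with the smallest adjusted p between cystic and noncystic Pkd2 WT and up to 2 between the cystic groups, with every gene where 5 or fewer were counted. The genes, lists and tests were chosen with earlier results of these data known. Alternatives were library totals, DESeq2 1.42.0 size factors or Wald test, limma-trend (limma 3.58.1), other low-count cutoffs, the compared groups alone, Xist as a covariate and each mouse left out. A few list members that enter the counts are not reported by name here.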

Additional observations from a re-analysis of the deposited data

How the results depend on the processing

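The 5 calls between cystic and noncystic Pkd2 WT and the 4 between cystic and noncystic Pkd2 D17 held in every alternative run. Without a low-count cutoff the count of members called was 8 in place of 5 for cystic against noncystic Pkd2 WT (23.6% of all 33191 genes). It was 5 in place of 0 between the cystic groups (4.94%) and 3 in place of 0 for the interaction (1.71%). Between the cystic groups Fxyd4 kept its log2 difference of -0.65, while its adjusted p went from 0.0703 to 9.75e-11 in that run. The cause was not tested. Between the cystic groups DESeq2's Wald test called 4, and leaving out 1 mouse gave 0 to 2. The Aqp2 interaction was 0.065 by limma-trend with library totals. Library totals raised the median log2 fold change of all genes by 0.16 (Pkd2 WT) and 0.15 (Pkd2 D17) between cystic and noncystic.

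With 1 mouse left out, log2 differences that changed sign ran, between cystic and noncystic Pkd2 WT, from -0.36 to 0.75 for Aqp2 and -0.080 to 0.15 for Nr3c2. Between cystic and noncystic Pkd2 D17 they ran from -0.052 to 0.40 for Aqp2 and -0.045 to 2.88 for Avpr2. Between the cystic groups they ran from -0.62 to 0.49 for Aqp2, -0.44 to 0.39 for Aqp3, -0.33 to 0.13 for Aqp4 and -0.050 to 0.16 for Nr3c2. Between the noncystic groups they ran from -0.26 to 0.14 for Aqp2, -0.11 to 0.024 for Aqp3, -0.093 to 0.30 for Aqp4, -0.10 to 0.049 for Scnn1b, -0.29 to 0.019 for Fxyd4, -0.30 to 0.0076 for Hsd11b2 and -0.12 to 0.10 for Nr3c2. For the interaction they ran from -0.54 to 0.57 for Aqp2, -0.40 to 0.44 for Aqp3, -0.46 to 0.0063 for Aqp4 and -0.063 to 0.15 for Nr3c2. No called gene changed sign.

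Of 1600 alternative list counts, 1452 stayed within 1.5 times and 148 moved. The filterByExpr cutoff left out Avpr2. No paired analysis was possible because the groups share no replicate numbers. Low read counts limit Avpr2 alone among the 10. Whether depth or the overlap with Arhgap4 sets them was not tested.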
